A study of Mus musculus with 14 samples.

Results

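Chemokine ligands are the small secreted or membrane-held proteins that direct the movement of leukocytes. They were followed here in whole uterus of mice at 3.5 days of gestation, counting the morning of the vaginal plug as 0.5 days, which is shortly before implantation. Members were the probe sets of an Affymetrix array whose only gene symbol was Ccl or Cxcl followed by a number, or Cx3cl1 or Xcl1. This gave 51 probe sets for 33 genes, out of 45037 probe sets that are not controls and 18193 genes with a probe set of 1 symbol. A further 4 probe sets carried several chemokine symbols and were not used. The study set folate given ahead of pregnancy against saline in mice of both genotypes. The 14 uteri came from 4 groups of C57BL/6 females, each on 1 array. Folr4-/- females given folinic acid (n = 4) are called supplemented mutants here, and Folr4-/- females given saline (n = 3) saline mutants. Wild-type females given folinic acid (n = 3) are called supplemented wild-type mice, and wild-type females given saline (n = 4) saline wild-type mice. Folinic acid is a reduced folate, given as 2 intraperitoneal injections of 12.5 mg/kg, at 10 and at 3 days before mating. The labels give no age of the females and no detail of the Folr4 allele, which is homozygous in both mutant groups. They call the replicates biological, and 2 title numbers are each carried by 2 arrays without a stated meaning, so p-values measure the spread between arrays. These arrays are replicates 1 and 2 of the supplemented wild-type mice, and replicates 2 and 3 of the saline wild-type mice.

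Chemokines are named by the spacing of their first cysteines, as CXC, CC, C and CX3C forms, and act through G protein-coupled receptors on leukocytes. CXC ligands with the amino acids glutamate, leucine and arginine before the first cysteine draw neutrophils through Cxcr2, and those without them mostly act on lymphocytes. Some ligands are made steadily by stroma or epithelium, while others are transcribed after inflammatory signals through NF-kappa B or after interferon. In the uterus after mating, seminal fluid brings in neutrophils and macrophages, and resident macrophages, dendritic cells and natural killer cells are present before implantation.

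The control sequences of 3 inducible ligands are given first because of their differences from uterus to uterus below. Cxcl2 and Cxcl10 are among the genes that differ most, and so is Cxcl1 at its dimmer probe sets. At the brightest Cxcl1 probe set, 1441855_x_at, the SD within groups was 0.556 on the log2 scale. This is under the median of 0.59 over the members tested. The sequences are the 300 bases from 250 before to 50 after the annotated start. They were taken from RefSeq on build GRCm38.p6 and are written in the direction of transcription. Capitals mark matches to the NF-kappa B letters, GGG and TTCC with any 3 bases between, or, in Cxcl10 alone, also to the interferon response core, GAAA repeated after any 2 bases, each searched on both strands. Cxcl1 lies at chr5:90890995-90891294 on the + strand, Cxcl2 at chr5:90903649-90903948 on the + strand and Cxcl10 at chr5:92348840-92349139 on the - strand.
Cxcl1: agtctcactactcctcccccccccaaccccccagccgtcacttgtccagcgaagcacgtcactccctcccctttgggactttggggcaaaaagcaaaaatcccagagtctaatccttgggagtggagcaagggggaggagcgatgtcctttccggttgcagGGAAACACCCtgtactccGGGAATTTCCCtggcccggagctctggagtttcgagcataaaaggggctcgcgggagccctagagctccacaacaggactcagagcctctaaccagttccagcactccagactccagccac
Cxcl2: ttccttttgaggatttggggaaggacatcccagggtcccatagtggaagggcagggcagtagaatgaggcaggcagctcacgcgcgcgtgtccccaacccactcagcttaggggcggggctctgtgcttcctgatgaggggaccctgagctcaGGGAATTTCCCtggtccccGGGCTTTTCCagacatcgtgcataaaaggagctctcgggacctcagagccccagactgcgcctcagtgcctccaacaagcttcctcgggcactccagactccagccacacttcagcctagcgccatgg
Cxcl10: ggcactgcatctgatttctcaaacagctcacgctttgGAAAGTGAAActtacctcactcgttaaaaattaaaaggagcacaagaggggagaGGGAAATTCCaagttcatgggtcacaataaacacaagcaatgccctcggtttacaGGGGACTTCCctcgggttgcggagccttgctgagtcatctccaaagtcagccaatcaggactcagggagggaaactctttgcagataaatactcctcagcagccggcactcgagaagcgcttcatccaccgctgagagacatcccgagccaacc
Cxcl1 and Cxcl2 both carry GGGAATTTCC, whose reverse match GGAATTTCCC overlaps it by all but 1 base at each end. It begins 71 bases before the start in Cxcl1 and 97 bases before it in Cxcl2. Cxcl1 has a further match, GGAAACACCC, beginning 89 bases before its start, and Cxcl2 has GGGCTTTTCC 78 bases before its own. Cxcl10 has GGGAAATTCC beginning 159 bases and GGGGACTTCC 104 bases before its start, and the interferon core GAAAGTGAAA 213 bases before it. Of the 26 promoter windows found for 23 member genes, 7 held the NF-kappa B letters (those of Ccl1, Ccl9, Ccl20, Cxcl1, Cxcl2, Cxcl3 and Cxcl10), against 5.56% of 32851 promoters. The interferon core was in 2 (Cxcl10 and Cxcl14), against 3.44% of all. The 3 genes were chosen for display after their values were seen, and a match is only a description of these letters.

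Values are the authors' MAS5 signals on a linear scale, with a 2% trimmed mean of 500 on every array. Log2 signals are given for the ligands above the filter used in the tests, and linear signals for those below it. A probe set was above the filter when its mean log2 signal over the 14 arrays reached 7.07, the median of all probe sets, which is a signal of 134. Median signals per array lay between 129.98 and 157, and all 12 uterine marker genes on a list (among them Pgr, Esr1 and Hoxa10) were above the filter. The 3' to 5' signal ratio of the actin control, a gauge of RNA quality, was lowest in replicate 1 of the supplemented mutants, at 1.54. It was highest in replicate 3 of the saline wild-type mice, at 3.64. Replicates 1 and 2 of the saline mutants were at 3.00 and 3.01, and replicate 3 of the supplemented mutants was at 3.12. The bearing of RNA quality on the ligand signals was not tested. The targeted gene, listed as Izumo1r, was too dim to check the genotype labels, at 6.14 to 70.2 in the mutants and 13.5 to 72.4 in wild-type mice. In a whole uterus, fewer cells of a type and less RNA per cell cannot be told apart.

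Replicate 1 of the supplemented mutants stood apart for genes of inflammation. It was the highest of the 14 arrays for 12 of the 24 member probe sets above the filter (50%), whereas it was highest for 9.58% of all 22519 probe sets above the filter. Over all 51 member probe sets it was highest for 22. On this array all 13 measured macrophage genes were also at their highest, as were the neutrophil genes S100a8 at a signal of 4708 (682 or less elsewhere), S100a9 at 3716 (429 or less elsewhere) and Csf3r at 681 (299 or less elsewhere). Mmp8 was also highest there, at 90.9, while Ltf was highest in replicate 4 of the supplemented mutants, at 28015 beside 24855 in replicate 1. Ngp, Camp and Elane, granule genes made by immature neutrophils in bone marrow, were at 136 or less on every array. Macrophage markers were above the filter for 13 of the 15 listed genes with a probe set. Summed signals of these 13 ran from 14696 to 79251 in supplemented mutants, 14080 to 25419 in saline mutants, 19134 to 23943 in supplemented wild-type mice and 16068 to 38352 in saline wild-type mice. The highest sum of saline wild-type mice was in replicate 4. Of 8 neutrophil genes with a probe set, S100a8 and Ltf were above the filter, and these 2 summed to 8568 to 29563 in supplemented mutants, 4138 to 16582 in saline mutants, 9873 to 21920.2 in supplemented wild-type mice and 6685 to 17322 in saline wild-type mice. Most of each of these sums is Ltf, at 24855 of the 29563 in replicate 1 of the supplemented mutants. Uterine epithelium also secretes Ltf, so the sums are no measure of neutrophils. S100a8 alone ran from 54.7 to 4708 in supplemented mutants, 58.9 to 134 in saline mutants, 88.8 to 419 in supplemented wild-type mice and 76.4 to 204 in saline wild-type mice. Whether such cells account for the ligand signals was not tested. Results that rest on replicate 1 of the supplemented mutants are given with and without it.

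Of the 33 ligand genes, 18 had a probe set above the filter, through 24 probe sets, which is 47.1% of the 51 members beside 50% of all probe sets. For 13 of the 18 genes a probe set exceeded the filter signal of 134 on every array. The 15 genes whose probe sets were all below the filter were Ccl1, Ccl2, Ccl3, Ccl7, Ccl17, Ccl20, Ccl22, Ccl24, Ccl25, Cxcl2, Cxcl3, Cxcl5, Cxcl9, Cxcl11 and Cxcl13. Of the 27 probe sets below it, 11 never reached a signal of 134 and 16 did so on at least 1 array. The members just inside and just outside the filter were Ccl12, at the 51.4 percentile of mean signal, and Cxcl9, at the 49.1 percentile.

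**Figure D1:**
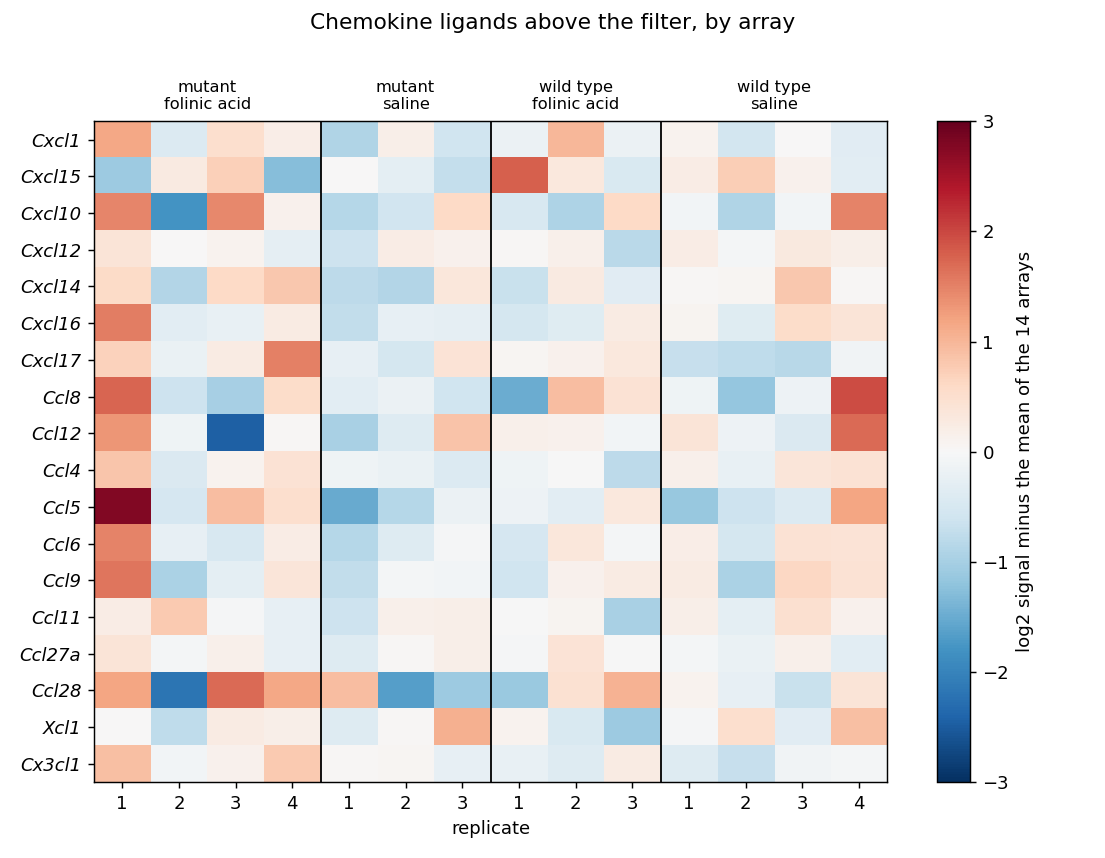
Log2 signal of the 18 chemokine ligand genes above the filter on the 14 arrays, each gene minus its own mean over the arrays (colour scale). Columns are single uteri in their 4 groups and rows are genes, a gene with several probe sets being drawn by its brightest. Replicate 1 of the supplemented mutants is the reddest array for Ccl5, Ccl6, Ccl9 and Cxcl16, and replicate 2 of that group is deep blue for Ccl28 and Cxcl10.

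The neutrophil-attracting CXC ligands, which act on Cxcr2, were mostly below the filter, with 1 uterus far above the rest. Cxcl2 (1449984_at) had signals of 4415, 28.6, 173 and 80.2 in supplemented mutants, 42.0, 13.6 and 40.5 in saline mutants, 16.4, 20.7 and 2.05 in supplemented wild-type mice, and 28.1, 16.03, 83.1 and 26.5 in saline wild-type mice. The value of replicate 1 of the supplemented mutants was 157 times the median of the other 13 arrays, 28.1, and 25.5 times the next highest. Cxcl5 (1419728_at), made by epithelium under inflammatory signals, had signals of 3832, 268, 213 and 128 in supplemented mutants, 128, 4.89 and 30.8 in saline mutants, 126, 169 and 95.5 in supplemented wild-type mice, and 6.53, 0.917, 239 and 17.1 in saline wild-type mice. Here that uterus was 14.3 times the next highest. The other 3 supplemented mutants at 128 to 268 overlapped both wild-type groups and met the highest saline mutant at 128.

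Cxcl1 (1419209_at), a close relative of Cxcl2, had signals of 932, 37.2, 73.7 and 34.7 in supplemented mutants, 35.8, 36.2 and 7.80 in saline mutants, 23.8, 68.9 and 7.29 in supplemented wild-type mice, and 67.9, 31.8, 87.1 and 54.4 in saline wild-type mice. The same uterus was 10.7 times the next highest. Its other probe sets were above the filter and agreed on which array was highest: 1441855_x_at had log2 signals of 9.89, 8.32, 9.22 and 8.94 in supplemented mutants, 7.83, 8.90 and 8.13 in saline mutants, 8.54, 9.72 and 8.54 in supplemented wild-type mice, and 8.84, 8.18, 8.75 and 8.39 in saline wild-type mice. All 4 groups overlapped, and 1457644_s_at was at a signal of 1555 in replicate 1 of the supplemented mutants and at 78.6 to 380.0 on the other arrays. Cxcl3 was at 223 in that uterus and at 83.4 or less elsewhere.

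Cxcl15, known in the mouse as lungkine from lung epithelium, was the exception among these ligands. Its probe set 1421404_at had log2 signals of 7.64, 8.99, 9.44 and 7.45 in supplemented mutants, 8.73, 8.44 and 8.01 in saline mutants, 10.53, 9.04 and 8.26 in supplemented wild-type mice, and 8.94, 9.46, 8.85 and 8.42 in saline wild-type mice. Replicate 1 of the supplemented wild-type mice was highest, and replicates 4 and 1 of the supplemented mutants were lowest. The second probe set, 1456428_at, correlated with the first at r = 0.82 over the 14 arrays.

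**Figure D2:**
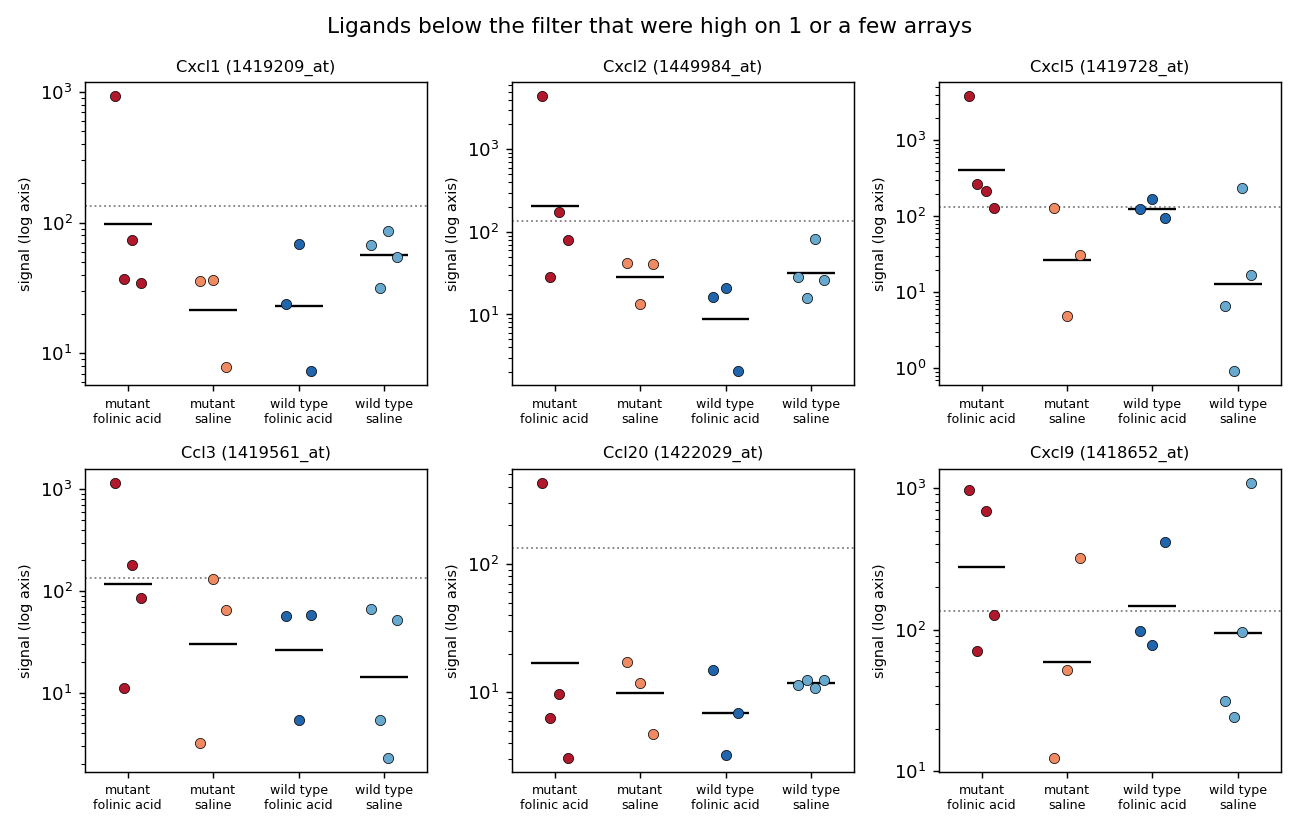
Signal (log axis) of 6 ligand probe sets below the filter, by group, with each uterus as a point, the geometric mean as a bar and the filter signal of 134 as a dotted line. For Cxcl1, Cxcl2, Cxcl5, Ccl3 and Ccl20 the highest point is replicate 1 of the supplemented mutants, from 428 for Ccl20 to 4415 for Cxcl2, while Cxcl9 reaches 320 to 1085 on at least 1 array of each group.

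Ligands of Cxcr3 on activated T and natural killer cells, which interferon-gamma induces, varied widely within groups. Cxcl10 (1418930_at) had log2 signals of 9.34, 6.08, 9.31 and 8.01 in supplemented mutants, 7.01, 7.30 and 8.48 in saline mutants, 7.40, 6.94 and 8.47 in supplemented wild-type mice, and 7.79, 6.97, 7.79 and 9.36 in saline wild-type mice. Replicates 1 and 3 of the supplemented mutants and replicate 4 of the saline wild-type mice were high and replicate 2 of the supplemented mutants was lowest, so that the groups overlapped throughout. Cxcl9 (1418652_at), just below the filter, had signals of 964, 70.7, 689 and 127 in supplemented mutants, 12.4, 52.1 and 320.1 in saline mutants, 97.4, 77.9 and 413 in supplemented wild-type mice, and 31.2, 24.2, 96.5 and 1085 in saline wild-type mice. Its 3 highest arrays were those same 3 uteri. Cxcl11 stayed at 72.6 or less on both of its probe sets.

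Among the remaining CXC ligands, Cxcl12 is the stromal ligand of Cxcr4. Its probe set 1448823_at had log2 signals of 12.79, 12.42, 12.51 and 12.14 in supplemented mutants, 11.79, 12.63 and 12.53 in saline mutants, 12.43, 12.55 and 11.58 in supplemented wild-type mice, and 12.62, 12.34, 12.69 and 12.57 in saline wild-type mice. The highest array was 2.32 times the lowest, with replicate 3 of the supplemented wild-type mice and replicate 1 of the saline mutants at the low end. A second probe set above the filter, 1417574_at, correlated with it at only r = 0.30, and the third, 1439084_at, was below the filter.

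Cxcl14, a ligand of epithelium and stroma that draws monocytes, had log2 signals at probe set 1418456_a_at of 10.28, 8.82, 10.29 and 10.51 in supplemented mutants, 8.91, 8.83 and 10.03 in saline mutants, 9.04, 9.96 and 9.37 in supplemented wild-type mice, and 9.74, 9.77, 10.50 and 9.74 in saline wild-type mice. Replicate 2 of the supplemented mutants lay well under the other 3 of its group, and replicate 3 of the saline mutants well over the other 2 of its group. Both also held at the second probe set, 1418457_at (r = 0.84). Cxcl16, which is held on the membrane of macrophages and dendritic cells and binds Cxcr6, had log2 signals at 1418718_at of 10.87, 9.02, 9.13 and 9.59 in supplemented mutants, 8.61, 9.09 and 9.08 in saline mutants, 8.81, 8.98 and 9.59 in supplemented wild-type mice, and 9.43, 8.98, 9.90 and 9.73 in saline wild-type mice. Replicate 1 of the supplemented mutants was 1.96 times the next highest array, and the remaining arrays of all groups overlapped. The other Cxcl16 probe set followed it closely (r = 0.94).

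Cxcl17, a ligand of mucosal epithelium, separated the 2 wild-type groups. Probe set 1451610_at had log2 signals of 11.28, 10.38, 10.84 and 12.09 in supplemented mutants, 10.34, 10.06 and 11 in saline mutants, 10.63, 10.71 and 10.91 in supplemented wild-type mice, and 9.88, 9.83, 9.74 and 10.49 in saline wild-type mice. All 3 supplemented wild-type mice were above all 4 saline wild-type mice, as in 2.4% of all probe sets, while supplemented and saline mutants overlapped. Each of these wild-type groups holds 2 arrays that share a title number, so it is not known whether its arrays are independent. Cxcl13, the B cell ligand of Cxcr5, was below the filter on both probe sets, at 32.6 to 212.

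Among the inflammatory CC ligands, Ccl5, Ccl6, Ccl9 and Ccl4 were above the filter. Ccl5 (1418126_at), made by T and natural killer cells among others, had log2 signals of 12.03, 8.74, 10.17 and 9.76 in supplemented mutants, 7.74, 8.40 and 9.07 in saline mutants, 9.10, 8.93 and 9.56 in supplemented wild-type mice, and 8.12, 8.62, 8.83 and 10.43 in saline wild-type mice. Replicate 1 of the supplemented mutants was 3.03 times the next highest array, replicate 4 of the saline wild-type mice. The other 3 supplemented mutants overlapped the saline mutants, since replicate 2 at 8.74 lay below replicate 3 of the saline mutants at 9.07.

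Ccl6 (1417266_at), a rodent ligand of macrophages and other myeloid cells, had log2 signals of 10.99, 9.23, 9 and 9.71 in supplemented mutants, 8.64, 9.11 and 9.45 in saline mutants, 9, 9.83 and 9.44 in supplemented wild-type mice, and 9.68, 8.97, 9.92 and 9.89 in saline wild-type mice. Ccl9 (1417936_at), likewise a rodent myeloid ligand of Ccr1, had log2 signals of 10.36, 7.82, 8.47 and 9.11 in supplemented mutants, 8.02, 8.69 and 8.67 in saline mutants, 8.17, 8.89 and 9.01 in supplemented wild-type mice, and 9.01, 7.82, 9.37 and 9.20 in saline wild-type mice. Both were highest in replicate 1 of the supplemented mutants, and their groups overlapped. Ccl4 (1421578_at), made by activated macrophages and lymphocytes, had log2 signals of 8.49, 7.23, 7.75 and 8.08 in supplemented mutants, 7.53, 7.45 and 7.25 in saline mutants, 7.53, 7.65 and 6.86 in supplemented wild-type mice, and 7.81, 7.42, 8.03 and 8.10 in saline wild-type mice. It was highest in the same uterus, at 1.31 times the next array. Ccl3, its neighbour in function and below the filter, was at a signal of 1159 in that uterus and at 179 or less on the others.

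Among the ligands of monocytes, Ccl8 (1419684_at), which in the mouse acts through Ccr8, had log2 signals of 12.81, 10.46, 10.08 and 11.62 in supplemented mutants, 10.75, 10.90 and 10.48 in saline mutants, 9.58, 12.00 and 11.50 in supplemented wild-type mice, and 10.94, 9.91, 10.92 and 13.03 in saline wild-type mice. Replicate 4 of the saline wild-type mice was highest and replicate 1 of the supplemented mutants next, and the highest array was 11 times the lowest. Ccl12 (1419282_at), a mouse ligand of Ccr2, had log2 signals of 8.51, 7.07, 4.74 and 7.23 in supplemented mutants, 6.23, 6.82 and 8.04 in saline mutants, 7.33, 7.33 and 7.10 in supplemented wild-type mice, and 7.57, 7.04, 6.76 and 8.90 in saline wild-type mice. The same 2 uteri were highest for Ccl12, and replicate 3 of the supplemented mutants was lowest at a signal of 26.8. The other Ccr2 ligands Ccl2 and Ccl7 were below the filter, with highest signals of 287 in replicate 1 of the supplemented mutants for Ccl2 and 135 in replicate 4 of the saline wild-type mice for Ccl7.

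Ccl11, the eotaxin that draws eosinophils through Ccr3, had log2 signals at 1417789_at of 7.80, 8.36, 7.55 and 7.35 in supplemented mutants, 6.96, 7.73 and 7.76 in saline mutants, 7.57, 7.68 and 6.62 in supplemented wild-type mice, and 7.76, 7.29, 8.07 and 7.72 in saline wild-type mice. Replicate 2 of the supplemented mutants was highest, and the groups overlapped. Ccl24, another eotaxin, was at 38.8 or less on every array. The Ccr4 ligands Ccl17 and Ccl22 were below the filter, Ccl17 at 14.3 to 190.1 and Ccl22 at 28.9 to 372, and the Ccr8 ligand Ccl1 was at 72.5 or less.

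Of the ligands of skin and mucosa, Ccl28, an epithelial ligand of Ccr10 that draws antibody-producing cells, had the widest spread within groups of the members above the filter. Probe set 1455577_at had log2 signals of 10.90, 7.52, 11.42 and 10.88 in supplemented mutants, 10.64, 8.07 and 8.63 in saline mutants, 8.59, 10.18 and 10.77 in supplemented wild-type mice, and 9.83, 9.46, 9.04 and 10.10 in saline wild-type mice. The highest array was 14.9 times the lowest, and both extremes were supplemented mutants. The saline mutants also split, with replicate 1 at 10.64 over the other 2 at 8.07 and 8.63. Its other probe sets were below the filter, at 102 or less.

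Ccl27a, the other ligand of Ccr10, was the steadiest member above the filter, with log2 signals at 1434962_x_at of 9, 8.56, 8.76 and 8.38 in supplemented mutants, 8.24, 8.64 and 8.80 in saline mutants, 8.58, 9.03 and 8.62 in supplemented wild-type mice, and 8.56, 8.42, 8.76 and 8.29 in saline wild-type mice. Copies of this gene lie close together in the genome, so the probe set may not tell them apart. Ccl20, a ligand of Ccr6 that epithelium makes under inflammatory signals, was at a signal of 428 in replicate 1 of the supplemented mutants and at 17.2 or less on the other 13 arrays. Ccl25 stayed at 102 or less.

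Xcl1, the C ligand that natural killer and T cells make to draw Xcr1-bearing dendritic cells, had log2 signals at 1419412_at of 7.24, 6.48, 7.48 and 7.40 in supplemented mutants, 6.86, 7.27 and 8.31 in saline mutants, 7.34, 6.77 and 6.13 in supplemented wild-type mice, and 7.21, 7.75, 6.88 and 8.13 in saline wild-type mice. It was just above the filter, and all groups overlapped. Cx3cl1 (1415803_at), the membrane-held CX3C ligand of endothelium and epithelium, had log2 signals of 9.23, 8.23, 8.44 and 9.10 in supplemented mutants, 8.36, 8.37 and 8.07 in saline mutants, 8.10, 7.94 and 8.56 in supplemented wild-type mice, and 7.94, 7.63, 8.21 and 8.26 in saline wild-type mice. Replicates 1 and 4 of the supplemented mutants were highest, at signals of 600.3 and 548 beside 377 or less on the other arrays. Its other 3 probe sets were below the filter, at 109 or less.

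The members varied more between uteri of 1 group than most probe sets. The SD within groups on the log2 scale had a median of 0.590 over the 24 member probe sets above the filter, against 0.292 over all 22519. It exceeded that median of all probe sets for 23 of the 24, the exception being Ccl27a at 0.250. Ccl28 at 1.28, Ccl8 at 1.14 and Cxcl10 at 1.12 varied most. Without replicate 1 of the supplemented mutants the median was 0.549, against 0.290 over all.

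No member probe set passed an adjusted p of 0.05 in any of the 7 comparisons by limma, with p adjusted by the Benjamini-Hochberg method over all 22519 probe sets. Over all probe sets the share that passed was 0.00444% for the genotype comparison under folinic acid, 0.00444% under saline, 0.00444% for genotype averaged over injections, 0.00444% for folinic acid averaged over genotypes, and 0% for the other 3. Members under an unadjusted p of 0.05 are therefore given as values that did not pass. Comparisons that share a group are not independent of each other. Nor are the members, since 24 probe sets stand for 18 genes, of which 17 correlated positively with the macrophage list. Counts of members or listed genes above or below 0 are therefore descriptions, with no test.

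Folinic acid against saline in the mutants gave the largest log2 difference between 2 groups among the 24 member probe sets above the filter. Ccl5 averaged 10.17 ± 1.38 log2 signal in supplemented mutants (SD, n = 4) and 8.40 ± 0.66 in saline mutants (SD, n = 3), a log2 difference of 1.77 ± 0.63 (SE) with an adjusted p of 0.272 by limma. Without replicate 1 of the supplemented mutants it was 1.15 ± 0.51. Cxcl1 (1441855_x_at) averaged 9.09 ± 0.65 in supplemented and 8.29 ± 0.55 in saline mutants, a log2 difference of 0.80 ± 0.37 with an adjusted p of 0.381, and of 0.54 ± 0.35 without replicate 1 of the supplemented mutants. These were the 2 of 24 members at an unadjusted p under 0.05, beside 12.8% of all probe sets, and without that array only Ccl5 was, 1 of 24 beside 9.34% of all. The log2 difference was above 0 for 20 of 24 members, beside 51.8% of all, and its median was 0.50, beside 0.01 over all. Without replicate 1 it was again above 0 for 20 of 24, beside 53.6% of all, with a median of 0.24.

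Replicate 2 of the supplemented mutants weighed on this comparison in the other direction. Of the 14 fits that each left out 1 array, the one without it gave the highest count of members. Values without this array, here and below, thus come from the most favourable of these fits and are no support of their own. Without it, 11 of the 24 members were at an unadjusted p under 0.05, beside 19.5% of all probe sets, and none passed after adjustment, beside 2.94% of all. Ccl5 then differed by 2.25 ± 0.59 on the log2 scale (adjusted p = 0.0553 by limma), Ccl28 by 1.95 ± 0.58 (adjusted p = 0.0885) and Cxcl14 (1418456_a_at) by 1.10 ± 0.31 (adjusted p = 0.0757). On that array the macrophage list was low as well, at -0.59 on its centred log2 scale, and so were the T and natural killer cell list at -0.94 and the interferon-stimulated list at -0.83. Their part in the result was not tested.

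For folinic acid against saline in wild-type mice, Cxcl17 was the 1 member at an unadjusted p under 0.05, beside 2.71% of all. It averaged 10.75 ± 0.14 log2 signal in supplemented wild-type mice (SD, n = 3) and 9.99 ± 0.34 in saline wild-type mice (SD, n = 4), a log2 difference of 0.76 ± 0.33 with an adjusted p of 1 by limma. It was also the 1 member whose groups did not overlap, being higher in supplemented mice, as was the case for 2.4% of all probe sets. Differences of the members had a median of -0.18, beside 0.01 over all, and were above 0 for 9 of 24, beside 51.2% of all. They ran from -0.74 for Xcl1 to 0.76 for Cxcl17.

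Averaged over genotypes, Cxcl17 differed by 0.72 ± 0.23 between folinic acid and saline (unadjusted p = 0.00687, adjusted p = 0.3 by limma), and by 0.70 ± 0.24 without replicate 1 of the supplemented mutants. This was the smallest p of a member in any of the 7 comparisons with all arrays. Without replicate 2 of that group the difference was 0.85 ± 0.21, with an adjusted p of 0.0717. Ccl5 and both Cxcl1 probe sets made up the other 3 of the 4 members under an unadjusted p of 0.05, beside 9.21% of all. Their log2 differences were 0.99 ± 0.44 for Ccl5, 0.60 ± 0.26 for Cxcl1 at 1441855_x_at and 0.90 ± 0.42 at 1457644_s_at, and of the 4 only Cxcl17 was under 0.05 without replicate 1 of the supplemented mutants, beside 7.6% of all. Cxcl1 at 1457644_s_at then differed by 0.57 ± 0.29. Differences were above 0 for 18 of 24 members with it and 12 of 24 without it, beside 52% and 52.8% of all probe sets.

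**Figure D3:**
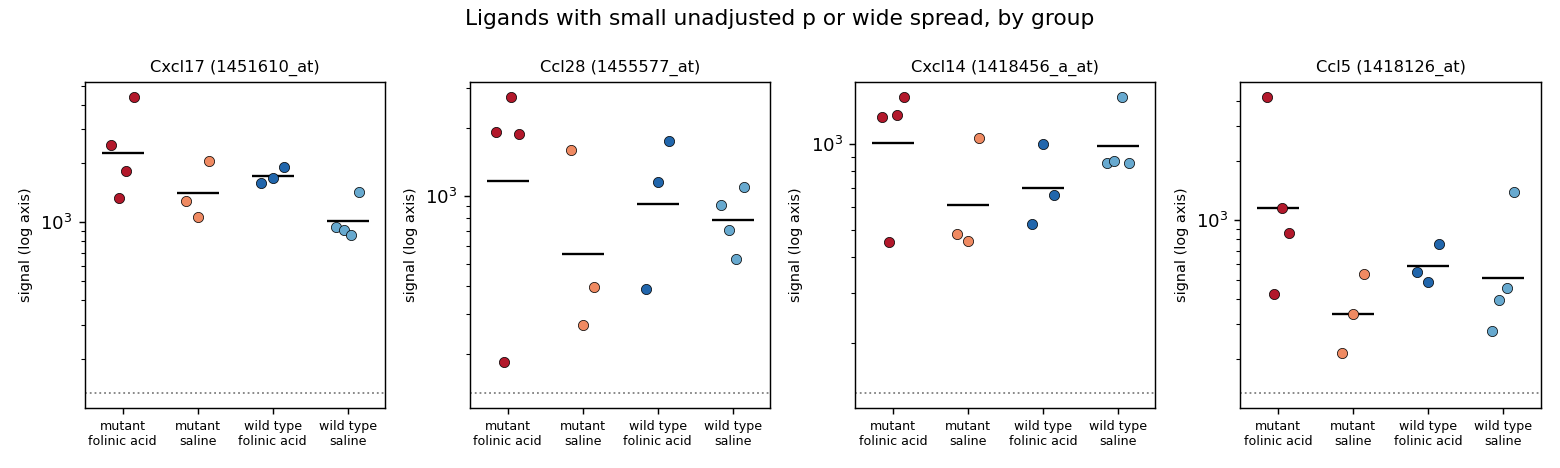
Signal (log axis) of Cxcl17, Ccl28, Cxcl14 and Ccl5 by group, with each uterus as a point and the geometric mean as a bar, over the filter signal of 134 (dotted line). Supplemented wild-type mice lie above saline wild-type mice for Cxcl17 with no overlap, as in 2.4% of all probe sets. Replicate 2 of the supplemented mutants lies far below the other 3 for Ccl28 and Cxcl14.

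Mutants against wild-type mice under folinic acid gave 1 member at an unadjusted p under 0.05, Cx3cl1, beside 3.81% of all. Cx3cl1 averaged 8.75 ± 0.49 log2 signal in supplemented mutants (SD, n = 4) and 8.20 ± 0.32 in supplemented wild-type mice (SD, n = 3), a log2 difference of 0.55 ± 0.26 with an adjusted p of 0.999 by limma, and of 0.39 ± 0.26 without replicate 1 of the supplemented mutants. The members' median difference was 0.36 with that array and 0.13 without it, beside -0.01 over all probe sets. Differences were above 0 for 19 of 24 members, beside 47.3% of all. When replicate 1 of the supplemented mutants was left out they were above 0 for 15 of 24, beside 48.7% of all, and 0 of 24 were at an unadjusted p under 0.05 by limma, beside 3.41% of all. Without replicate 2 of the supplemented mutants, 7 of 24 were at an unadjusted p under 0.05, beside 7.46% of all, again with none past the adjusted threshold.

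Under saline, 0 of 24 members were at an unadjusted p under 0.05 between mutants and wild-type mice by limma, beside 3.11% of all. The smallest p was that of Cxcl14 (1418456_a_at), which averaged 9.26 ± 0.67 log2 signal in saline mutants (SD, n = 3) and 9.94 ± 0.38 in saline wild-type mice (SD, n = 4), a log2 difference of -0.68 ± 0.39 with an adjusted p of 1. It was -1.06 without replicate 3 and -0.47 without replicate 2 of the saline mutants. Differences lay below 0 for 20 of 24 members and above 0 for 4 of 24, beside 46.2% above 0 over all, with a median of -0.38 beside -0.02. Without replicate 1 of the supplemented mutants, which enters through the shared spread, Cxcl16 (1418718_at) had the smallest p, with a log2 difference of -0.58 ± 0.25 (unadjusted p = 0.0345, adjusted p = 1). Averaged over injections, Cx3cl1 differed by 0.40 ± 0.18 between mutants and wild-type mice (adjusted p = 1), the 1 member at an unadjusted p under 0.05, beside 2% of all. Without replicate 1 of the supplemented mutants it differed by 0.32 ± 0.18. With the title number as a random block 0 members were under it by limma, and the Cx3cl1 difference was 0.39.

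**Figure D4:**
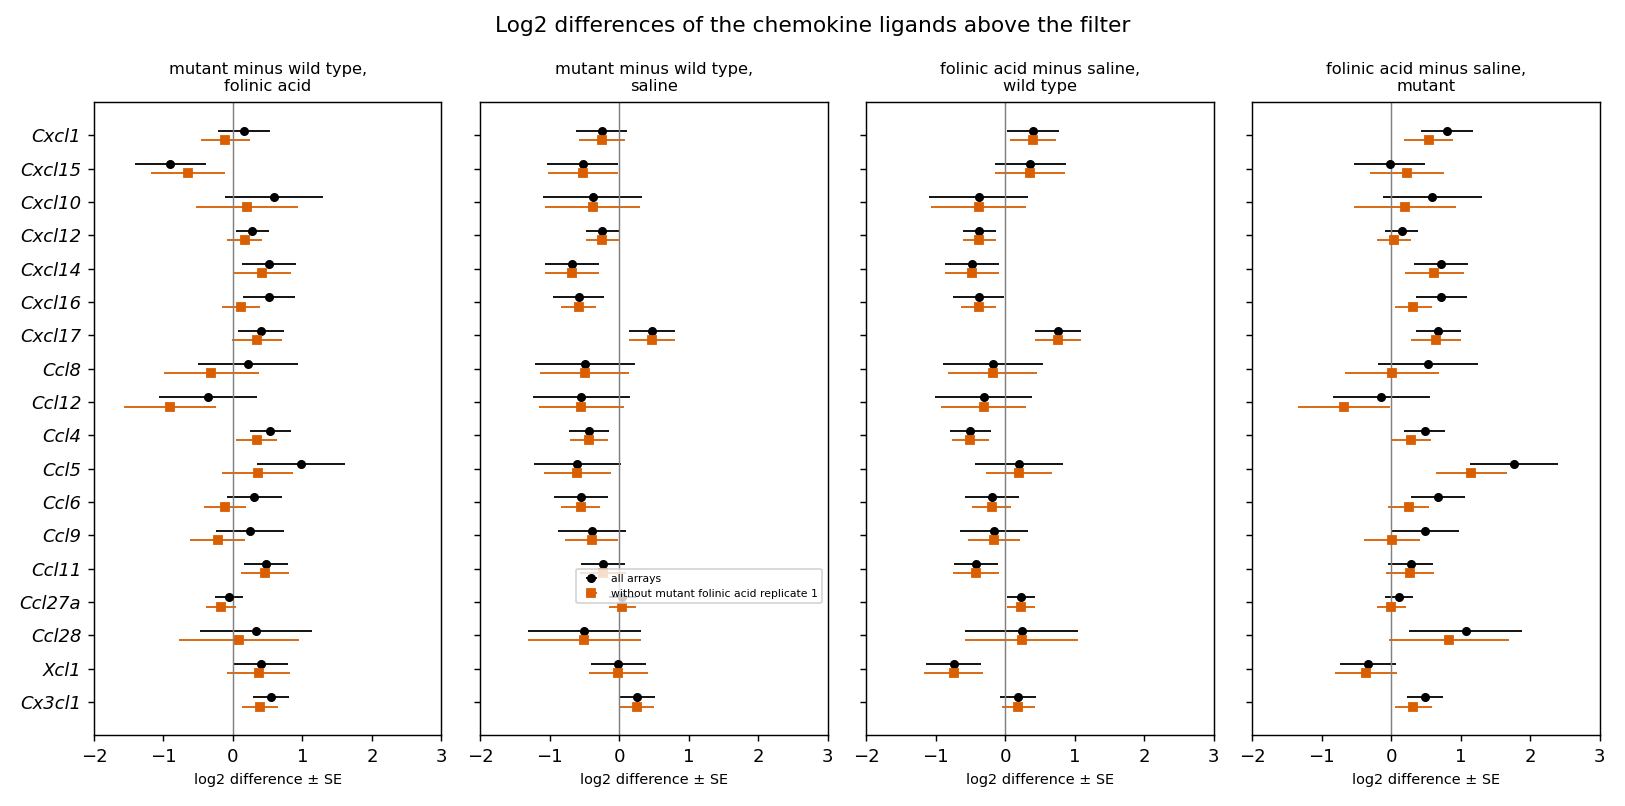
Log2 difference ± SE of the 18 ligand genes in the 4 pairwise comparisons, from the limma fit with all arrays (black circles) and without replicate 1 of the supplemented mutants (orange squares). Only the brightest probe set of each gene is drawn, while the counts here are over all 24 probe sets above the filter. In the mutants 20 of the 24 lie above 0 for folinic acid minus saline both ways, and between saline mutants and saline wild-type mice 4 of 24 do. No member passed the adjusted threshold.

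The interaction asks whether folinic acid shifted a ligand differently in mutants and in wild-type mice. By limma it was 0.98 ± 0.41 on the log2 scale for Ccl4 (adjusted p = 0.905) and 1.20 ± 0.55 for Cxcl14 (1418456_a_at, adjusted p = 0.905), the 2 members at an unadjusted p under 0.05, beside 4.9% of all. Without replicate 1 of the supplemented mutants no member was under it, beside 4.05% of all, and without replicate 2 of that group 7 were, beside 9.27% of all. The median over members was 0.64, beside 0.01 over all, and 0.37 without replicate 1. None passed after adjustment.

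Several ligands followed the macrophage genes from uterus to uterus. The 18 measured ligand genes were correlated over the 14 arrays with 4 lists of cell type genes, which makes 72 pairs, and each list value was the mean of its genes' centred log2 signals. With the macrophage list, 17 of 18 correlations were positive, with a median Pearson r of 0.57. Of these, 6 passed an adjusted p of 0.05 in a two-sided permutation test with 100000 resamples. For Ccl5, r was 0.91 and Spearman's rho 0.79, with permutation p of 5e-05 and 0.0015 (adjusted p = 0.0029 and 0.018). For Cxcl16, r was 0.89 and rho 0.80, with permutation p of 0.00020 and 0.00086 (adjusted p = 0.0038 and 0.016).

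Ccl9 followed the list at r = 0.88 and rho = 0.79, with permutation p of 8e-05 and 0.0011 (adjusted p = 0.0029 and 0.016). Ccl6 followed it at r = 0.87 and rho = 0.72, with permutation p of 0.00027 and 0.0051 (adjusted p = 0.0039 and 0.041). Cxcl10 did so at r = 0.79 and rho = 0.89, with permutation p of 0.00021 and 6e-05 (adjusted p = 0.0038 and 0.0043). Ccl8 passed by Pearson's r alone, at 0.72 (permutation p = 0.0027, adjusted p = 0.024), with rho at 0.66 (permutation p = 0.012, adjusted p = 0.081). Cxcl15 was the 1 ligand with a negative r, of -0.57 (permutation p = 0.039, adjusted p = 0.15).

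The 2 arrays farthest from the median of the macrophage list were replicate 1 of the supplemented mutants and replicate 4 of the saline wild-type mice. Without the 2 farthest arrays of each list, none of the 72 pairs passed the adjusted threshold in a permutation test, where fewer arrays enter. With the macrophage list, r was then 0.70 for Ccl5, 0.67 for Cxcl16, 0.76 for Ccl9, 0.64 for Ccl6, 0.75 for Cxcl10 and 0.37 for Ccl8. Of the 18 correlations with it, 16 were still positive, with a median of 0.42. Without replicate 1 of the supplemented mutants alone, Ccl5, Ccl9 and Cxcl10 passed. On values centred on the group means, all 6 passed again and Cx3cl1 with them, in a test that does not take off the 4 means and so gives p that are too small. Ccl28 had r = 0.42 with the macrophage list over the 14 arrays (permutation p = 0.14, adjusted p = 0.33).

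**Figure D5:**
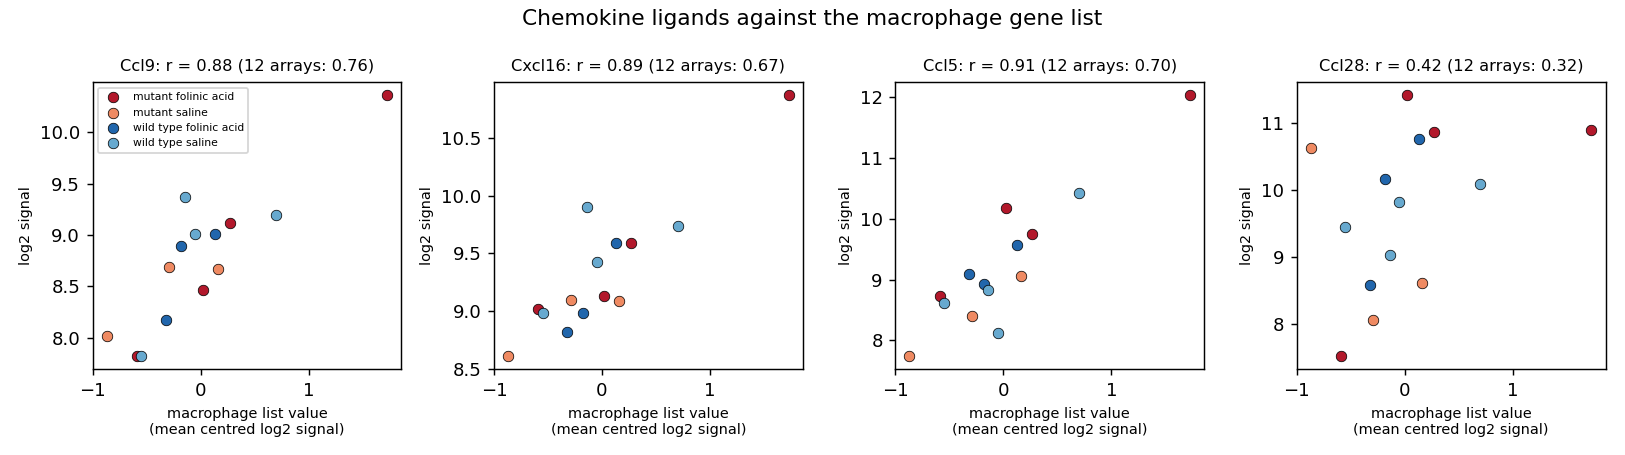
Log2 signal of Ccl9, Cxcl16, Ccl5 and Ccl28 (vertical) against the value of the macrophage list (horizontal, mean centred log2 signal of 13 genes), with each of the 14 uteri as a point coloured by group. The point at 1.73 is replicate 1 of the supplemented mutants, and r is given over 14 arrays and over the 12 left without the 2 farthest.

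With the T and natural killer cell list, Cxcl10 (r = 0.79, rho = 0.79, permutation p = 0.00086 and 0.0011, adjusted p = 0.0088 and 0.016) and Ccl5 (r = 0.78, rho = 0.81, permutation p = 0.00086 and 0.00067, adjusted p = 0.0088 and 0.016) passed by both measures. Ccl28 (rho = 0.76, permutation p = 0.0022, adjusted p = 0.020) and Cxcl17 (rho = 0.77, permutation p = 0.0018, adjusted p = 0.019) passed by rank alone. None did so without the 2 farthest arrays, replicates 1 and 2 of the supplemented mutants. No ligand passed with the epithelial or the adipocyte list, where the median r over the 18 ligands was -0.26 for epithelium and 0.05 for adipocytes. Against 14 interferon-stimulated genes, a list added to the correlations after the data were seen, Cxcl10 had r = 0.90 and rho = 0.93 (both at the smallest permutation p possible, 1e-05, adjusted over 18 ligands to 0.00018). It was the 1 ligand that passed there without the 2 farthest arrays, at r = 0.84.

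The receptors of these ligands were partly within reach of the arrays. Of 18 conventional receptors on the list used, 16 had a probe set of 1 symbol and 5 were above the filter: Ccr2, Cxcr3, Cxcr4, Cxcr6 and Cx3cr1. None of the 5 passed the adjusted threshold in any comparison by limma. Cxcr6, the receptor of Cxcl16, was at signals of 2009, 230.3, 689 and 521 in supplemented mutants, 197, 112 and 124 in saline mutants, 145, 753 and 392 in supplemented wild-type mice, and 490.2, 143, 231 and 506 in saline wild-type mice. All 4 supplemented mutants were above all 3 saline mutants, as in 4.65% of all probe sets, with a log2 difference of 2.19 ± 0.66 (adjusted p = 0.212 by limma) and of 1.64 ± 0.59 without replicate 1 of the supplemented mutants (adjusted p = 0.455).

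Ccr2, the receptor of Ccl12, showed the same order, with a log2 difference of 1.32 ± 0.29 between supplemented and saline mutants (adjusted p = 0.125 by limma) and of 1.24 ± 0.32 without that array. Its signals were 2448, 2243, 1342 and 2586 in supplemented mutants, 963, 699 and 878 in saline mutants, 1158, 1703 and 2824 in supplemented wild-type mice, and 2232, 1412, 1477 and 2279 in saline wild-type mice. In the comparison of supplemented with saline mutants 3 of the 5 receptors were at an unadjusted p under 0.05, all higher, beside 6.07% of all probe sets, and 2 of 5 without replicate 1 of the supplemented mutants, beside 4.42%. All 3 saline mutants also lay below all 4 saline wild-type mice for Ccr2, as in 2.36% of all probe sets, with a log2 difference of -1.11 ± 0.29 (adjusted p = 1 by limma). Between these groups none of the 5 receptors had a difference above 0, their median was -0.93, and Ccr2 was the 1 of 5 lower at an unadjusted p under 0.05, beside 1.81% of all. Cxcr2, the receptor of the neutrophil-attracting ligands, was below the filter, at 116 in replicate 1 of the supplemented mutants and at 61.9 or less elsewhere. Cx3cr1, the receptor of Cx3cl1, was at 1268 in that uterus and at 89.6 to 412 on the other arrays.

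Genes that bind or induce these ligands gave no call either. Of 5 atypical receptors, which take up chemokines without signalling onward, Ackr1, Ackr3 and Ackr4 were above the filter and none passed in any comparison. Of 10 cytokines known to induce ligands, only Il1b and Csf1 were above it. Il1b, whose product induces Cxcl1, Cxcl2 and Cxcl5 in many cells, was at 2079.7 in replicate 1 of the supplemented mutants and at 414 or less on the other arrays. Its log2 difference between supplemented and saline mutants was 1.88 ± 0.73 (adjusted p = 0.307 by limma), and 1.01 ± 0.47 without that array. Tnf stayed at 91.0 or less and Ifng at 159 or less.

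Of 17 interferon-stimulated genes on the list used, 14 were measured and none passed in any comparison. Between supplemented and saline mutants their log2 difference was above 0 for 14 of 14, beside 51.8% of all probe sets, with a median of 0.43. It was above 0 for 8 of 14 without replicate 1 of the supplemented mutants, beside 53.6% of all, with a median of 0.20. Between saline mutants and saline wild-type mice it was above 0 for 0 of 14, beside 46.2% of all, with a median of -0.23. Of 4 chemokine ligands that carry other symbols, Pf4, Mif and Cklf were above the filter. Cklf had the smallest p among them, with a log2 difference of 0.80 ± 0.27 between supplemented mutants and supplemented wild-type mice (adjusted p = 0.999 by limma).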

How the data were processed

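RNA of 14 uteri was hybridised to 14 one-colour Affymetrix arrays, 1 uterus each. The values are intensity signals on a linear scale, made by the authors with MAS5, per the submitters' processing notes, which give no version; detection calls and scanner files were not used here. Genes were named by the platform annotation: 34945 probe sets had 1 symbol, 932 several and 9160 none, and no gene was named from several. Here signals under 1 (0.505% of values) were raised to 1 and log2 was taken. Of 45037 probe sets after 64 controls were left out, the 22519 with a mean log2 at or above the median entered a limma fit (version 3.58.1, R 4.3.3; 4 group means, eBayes with trend, two-sided, Benjamini-Hochberg over all 22519, threshold 0.05). Correlations used two-sided permutation tests with 100000 resamples (Python 3.11.15, numpy 2.4.6, scipy 1.17.1). The fit was tested on simulated data. The number of arrays limits the precision.

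The members and gene lists were chosen with earlier results of these data known. Every ligand above the filter is named; a log2 difference is given for each at an unadjusted p under 0.05 and for the smallest p of a comparison, and other pathway genes are named as receptors of a member or for the smallest p of their list, while remaining names (Tnf, Ifng, Cxcr2, the neutrophil genes) were added after their values were seen. Alternatives were quantile normalization, an offset of 16, no filter or the upper 35 percent, other variance settings, array weights, only the groups compared, replicate and title number blocks, 1 probe set per gene, and each array left out. Replicate numbers did not pair the arrays: deviations of 19 same-numbered pairs correlated at -0.337 to 0.354.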

Additional observations from a re-analysis of the deposited data

Results flagged for a closer look

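Dixon's test was run on the log2 signals of each member probe set in the 2 groups of 4 uteri, 102 groups in all, and 5 held a uterus whose gap to the nearest other exceeded Dixon's critical share of the group's range. Chance flags about 1 in 20 groups, and 5 of 102 is near that share. Replicate 2 of the supplemented mutants was far below the other 3 for Ccl28, at a signal of 184 beside 1879 to 2739 (gap of 0.860 of the range). The same uterus was low at both Cxcl14 probe sets, at 453 beside 1239 to 1454 at the brighter one (0.863) and at 188 beside 693 to 871 at the dimmer one (0.851). In saline wild-type mice, replicate 3 was high for Cxcl14 at the brighter probe set, with 1451 beside 852 to 873 (0.956), while at the dimmer it was the lowest of its group, at 402 beside 464 to 618. That array also had the highest 3' to 5' ratios, 3.64 for actin and 2.48 for Gapdh. It was the highest array for 14.4% and the lowest for 14.3% of all probe sets above the filter, more than any other array. Replicate 3 of the supplemented mutants was high for a dim second probe set of Cx3cl1, with 21.4 beside 1.59 to 2.11 (0.891), a probe set far below the filter.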

How the results depend on the processing

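By limma, 0 of 24 members passed the adjusted threshold in each of the 7 comparisons, and the count was also 0 under every alternative that was run and with each array left out. With the replicate block it was 0 throughout too, and since the numbers do not pair the arrays this says nothing of weaker effects. Counts at an unadjusted p under 0.05 were less steady: with each array left out in turn they ran from 0 to 7 for supplemented mutants against supplemented wild-type mice, 1 to 11 for supplemented against saline mutants and 0 to 7 for the interaction, with the highest count of each when replicate 2 of the supplemented mutants was left out. They ran from 0 to 3 for genotype averaged over injections, 1 to 5 for folinic acid averaged over genotypes, 0 to 2 for folinic acid in wild-type mice and 0 to 1 for genotype under saline. Under the other processing alternatives, among them no filter, which tests all 51 members, the counts ran from 0 to 3 for supplemented mutants against supplemented wild-type mice, 1 to 7 for supplemented against saline mutants, 0 to 7 for the interaction, 0 to 4 for genotype averaged over injections, 2 to 8 for folinic acid averaged over genotypes, 1 to 4 for folinic acid in wild-type mice and 0 to 2 for genotype under saline. The share of all probe sets moved too when replicate 2 of the supplemented mutants was left out. It rose from 3.81% to 7.46% for genotype under folinic acid, from 12.8% to 19.5% for folinic acid in mutants and from 4.9% to 9.27% for the interaction. Shares over all are not given for the other alternatives, so these counts alone are no result about the ligands. The log2 differences rerun under every alternative that kept their probe set were those of members at an unadjusted p under 0.05 or with the smallest p of a comparison, of Cx3cl1, Cxcl14, Cxcl17, Ccl5, Cxcl1 and Ccl4, and none of these changed sign. Of the 72 correlations, 8 passed over all arrays, 0 without the 2 farthest arrays and 3 without replicate 1 of the supplemented mutants, where fewer arrays enter. For the interferon-stimulated list 6 of 18 passed, 1 without the 2 farthest arrays and 2 without that replicate. Ligand genes counted as measured were 18, and 13 in the upper 35 percent or when every array had to reach the filter signal.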

Other observations

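Ltf, the gene of lactotransferrin, which neutrophils store and uterine epithelium secretes, was compared with the 18 measured ligands after the data were seen. Ccl28 correlated with it over the 14 arrays at r = 0.80 and rho = 0.85 (two-sided permutation p = 0.00065 and 0.00024, adjusted over 18 ligands to 0.012 and 0.0043). Without the 2 arrays farthest in Ltf, replicate 2 of the saline mutants and replicate 2 of the saline wild-type mice, r was 0.83 (adjusted p = 0.018), and without replicate 1 of the supplemented mutants 0.78 (adjusted p = 0.026). Cxcl17 had r = 0.75 and rho = 0.78 (permutation p = 0.0019 and 0.0018, adjusted p = 0.017 and 0.016), and r = 0.74 without the 2 farthest arrays (adjusted p = 0.026). On values centred on the group means Ccl28 had r = 0.81 (adjusted p = 0.0076) and Cxcl17 r = 0.68 (adjusted p = 0.055). Only Ccl28 passed there by Pearson's r, in a test that makes no allowance for the means taken off and so gives p that are too small. The other 16 ligands did not pass by Pearson's r over all arrays, while by rank Ccl5 (rho = 0.75, adjusted p = 0.016) and Cx3cl1 (rho = 0.68, adjusted p = 0.039) did.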
